A study of Mus musculus with 15 samples.

Results

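The genes described here are 41 interferon-stimulated and nucleic acid sensing genes of the mouse, taken as a named list, with no peak value in the rule. They were nevertheless chosen with earlier results of these data known. A gene was called marked in a peak list when at least 1 peak of trimethylated histone H3 lysine 4 (H3K4me3) overlapped the 2000 bp on either side of any of its annotated transcript starts (GRCm39, GENCODE M39). All 41 genes were found in the annotation, among 21770 protein-coding genes in all, on 16 chromosomes, and genes without a peak were kept. H3K4me3 was measured by ChIP–seq in mBA cells, a brown adipocyte model, in 12 ChIP samples beside 3 input samples. WT cells were wild type and untreated (4 samples). WT + 2HG cells were wild type and received octyl d-2HG, a cell-permeable form of 2-hydroxyglutarate, in DMSO, at 500 µM for 72 h from day 3 of differentiation, renewed every 24 h (4 samples). CLPP-KO cells were knockout for Clpp, the proteolytic subunit of a mitochondrial matrix protease, and were not treated (4 samples). All cells grew in high-glucose DMEM without pyruvate, and the CLPP-KO cells alone also received uridine, so genotype and uridine cannot be told apart. The sample labels name the cells primary, whereas the study's methods describe brown fat stem cells of newborn mice immortalized with SV40 large T antigen from a PGK promoter and differentiated to day 8. The study's reporting summary counts separate cultures as biological replicates, and it describes lines made from pooled animals of both sexes. Whether each line is a single clone is not given in the sources used here. WT and CLPP-KO cells came from separate lines, so genotype and line cannot be told apart either. Whether WT cells received DMSO is not given, and they are labelled untreated, so 2HG and DMSO cannot be told apart.

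Type I interferons act through the receptor chains Ifnar1 and Ifnar2, which activate Stat2. A complex that holds Stat2 and Irf9 binds the interferon-stimulated response element (ISRE) in the promoters of antiviral genes. Upstream of interferon, sensors such as Cgas for DNA and Ifih1 for double-stranded RNA signal through the adaptors Sting1 and Mavs to the kinase Tbk1 and the factors Irf3 and Irf7. H3K4me3 is a promoter mark that typically lies over the first nucleosomes downstream of an active or poised start site.

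Peak calling by the authors pooled the 4 replicates of each condition, which left 1 list per condition and no replicate spread. No test between conditions was therefore possible, and the differences below are descriptions of 3 pooled lists. Both comparisons share the WT list. The WT list held 12342 peaks, the WT + 2HG list 14059 and the CLPP-KO list 15118, so a longer list alone marks more genes. Where 3 values are given in a row below, they follow the order WT, WT + 2HG and CLPP-KO. Read depth cannot be read from the lists. Peak area was not scaled between lists, with medians of 2970.5, 5027.3 and 5743.6. Each gene was therefore described by the percentile of its strongest promoter peak, that is, the share of peaks in the same list with an area at or below it. For protein-coding genes marked in every list, the median percentile was 59.8, 64.8 and 67.0. A percentile above that of WT is therefore not by itself a change at a gene. At the deleted gene itself, Clpp carried a promoter peak in each of the lists, with percentiles of 39.9, 45.2 and 43.4. A promoter mark does not report whether the coding sequence is intact, so this does not check the genotype label.

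In CLPP-KO, 31 of the 41 genes were marked, against 21 in WT and 22 in WT + 2HG. The CLPP-KO share was 75.6% (95% Wilson interval 60.7 to 86.2), the WT share 51.2% (36.5 to 65.7) and the WT + 2HG share 53.7% (38.7 to 67.9). Of all protein-coding genes, the CLPP-KO list marked 58.2%, the WT + 2HG list 56.4% and the WT list 51.3%. The intervals cover counting error only and treat genes as independent, which neighbours that share a peak are not. In bulk samples like these, a mark in fewer cells and a weaker mark per cell cannot be told apart. Of the 20 genes without a WT peak, 10 were marked in CLPP-KO, or 50.0% (29.9 to 70.1), where 14.9% of the 10611 protein-coding genes without a WT peak were. These were the antiviral effectors Ifit1, Rsad2, Mx2, Oas1a, Oas2 and Oasl2, the ubiquitin-like protein Isg15 and its protease Usp18, the signalling factor Irf9 and the RNA-activated kinase Eif2ak2. In WT + 2HG, 2 of the 20 were marked (10.0%, 2.79 to 30.1), Usp18 and Eif2ak2, where 11.6% of protein-coding genes were. Both were also in the CLPP-KO list, a pattern held by 9.74% of protein-coding genes without a WT peak. Of the 21 genes marked in WT, Xaf1 alone was missing from WT + 2HG (background 0.914%) and none was missing from CLPP-KO (background 0.672%). No list held a promoter peak for 10 genes, or 24.4% (13.8 to 39.3), against 40.6% of protein-coding genes. Neither this share nor the CLPP-KO share stayed as far from the background when weak peaks were left out.

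The CLPP-KO gain rested on weak peaks, and it depended on how the lists were cut. The 10 gained genes sat at percentiles 2.45 to 24.8 of the CLPP-KO list, with a median of 17.7, where the 1579 protein-coding genes gained in CLPP-KO had a median of 20.4. Their summits reached a −log10 p of 3.35 to 5.40 (median 4.50), against a median of 6.14 for all gained protein-coding genes. When every list was limited to peaks with a summit p of at most 1e-05, 2 of 23 listed genes were gained (Isg15 and Eif2ak2), where 15.0% of protein-coding genes were. In WT + 2HG, 3 of 23 were gained under that limit, beside 13.1%. With peaks of an area of at least 1000, the CLPP-KO count was 5 of 24, beside 16.9% of protein-coding genes, and the WT + 2HG count 4 of 24, beside 13.5%. When the CLPP-KO and WT + 2HG lists were cut to the size of the WT list, 4 of 20 were gained in CLPP-KO by area (Isg15, Usp18, Oas1a and Eif2ak2) and 0 of 20 by summit p. The protein-coding shares were then 8.39% and 8.28%. In WT + 2HG, 2 of 20 were gained in either case, beside 7.26% by area and 7.13% by summit p. With both limits on summit p, WT + 2HG thus had more gained genes than CLPP-KO, the reverse of the order in the full lists. Narrower or wider windows, the canonical transcript alone, protein-coding transcripts alone, the summit in the window and 1 gene per peak left 9 or 10 genes gained in CLPP-KO. None of the 10 genes was gained under every one of these alternatives. With the stricter lists, the share of listed genes marked in CLPP-KO was below or about level with that of protein-coding genes, at 48.8% beside 54.5% with the limit on summit p, 53.7% beside 53.6% with the limit on area or lists of equal size by area, and 43.9% beside 53.3% with lists of equal size by summit p. The share in no list was 46.3% beside 44.2%, 43.9% beside 45.5%, 39% beside 43.8% and 43.9% beside 43.9% with the limit on summit p, the limit on area, equal size by area and equal size by summit p.

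**Figure D1:**
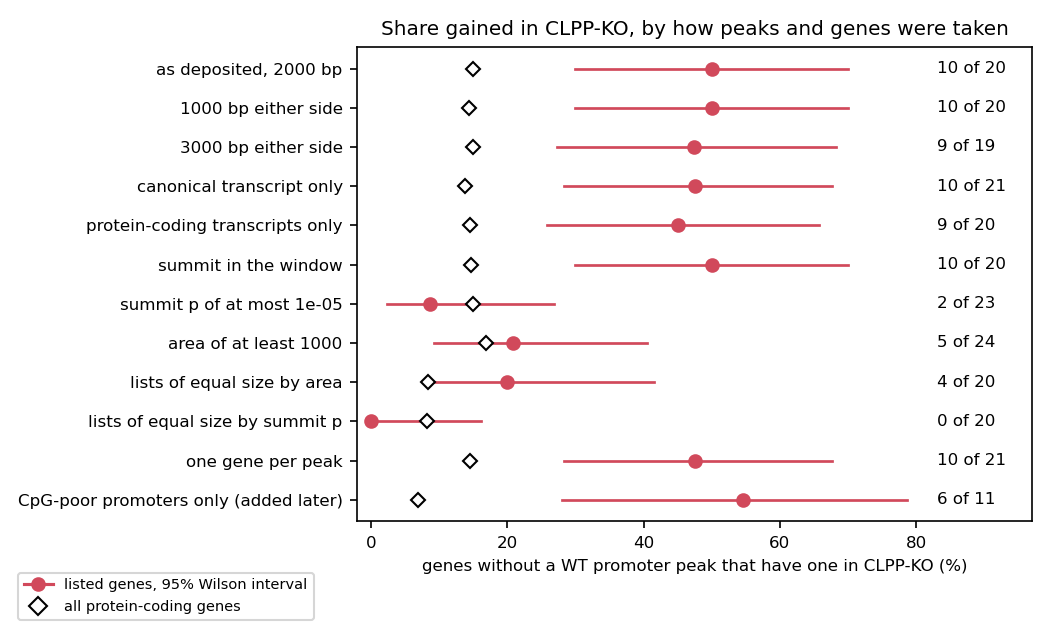
Share of the listed genes without a WT promoter peak that had a promoter peak in CLPP-KO (circles, with 95% Wilson intervals, x axis in percent), for each way of taking peaks and genes (y axis). Diamonds give the same share of all protein-coding genes. The circle lies at 50.0% with the lists as deposited, and at 0 with lists of equal size by summit p, where the diamond is at 8.28%.

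Promoter sequences are shown for 5 of the gained genes and for Ifit3, which had no peak in any list, because they carry the letters of the ISRE core. Each runs from 250 bases before to 50 bases after a RefSeq start (RefSeq sequences, build GRCm38.p6), and each was placed by exact match in GRCm39. Capitals mark TTCNNTTTC on either strand, with overlapping matches merged.
Ifit1: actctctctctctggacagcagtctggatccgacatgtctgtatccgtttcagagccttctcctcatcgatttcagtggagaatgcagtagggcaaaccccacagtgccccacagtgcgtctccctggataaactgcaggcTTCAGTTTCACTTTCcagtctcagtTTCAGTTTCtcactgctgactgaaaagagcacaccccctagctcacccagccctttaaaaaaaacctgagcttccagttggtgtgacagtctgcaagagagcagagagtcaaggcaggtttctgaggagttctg
Isg15: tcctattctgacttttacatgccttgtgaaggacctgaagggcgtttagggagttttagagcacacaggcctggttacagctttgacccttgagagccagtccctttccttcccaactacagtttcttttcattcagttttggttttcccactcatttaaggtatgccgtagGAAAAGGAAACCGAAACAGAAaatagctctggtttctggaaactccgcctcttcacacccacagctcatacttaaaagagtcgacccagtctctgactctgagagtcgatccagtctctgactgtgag
Rsad2: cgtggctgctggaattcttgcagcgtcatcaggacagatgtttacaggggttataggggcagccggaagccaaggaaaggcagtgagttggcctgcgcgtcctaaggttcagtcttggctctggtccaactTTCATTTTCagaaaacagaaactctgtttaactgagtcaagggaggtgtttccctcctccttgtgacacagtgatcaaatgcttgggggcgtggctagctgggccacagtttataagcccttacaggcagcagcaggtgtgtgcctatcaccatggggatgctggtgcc
Oas1a: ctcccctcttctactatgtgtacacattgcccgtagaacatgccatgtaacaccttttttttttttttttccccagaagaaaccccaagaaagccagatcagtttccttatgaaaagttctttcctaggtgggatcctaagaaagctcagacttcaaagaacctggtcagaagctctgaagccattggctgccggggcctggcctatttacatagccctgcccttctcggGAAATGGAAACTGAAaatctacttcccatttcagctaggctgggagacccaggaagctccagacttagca
Eif2ak2: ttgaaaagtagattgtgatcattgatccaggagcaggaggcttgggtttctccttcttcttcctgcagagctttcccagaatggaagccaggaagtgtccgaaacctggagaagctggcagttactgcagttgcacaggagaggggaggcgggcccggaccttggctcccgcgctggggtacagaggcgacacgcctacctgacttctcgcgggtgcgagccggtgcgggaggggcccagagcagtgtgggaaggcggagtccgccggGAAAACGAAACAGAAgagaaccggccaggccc
Ifit3: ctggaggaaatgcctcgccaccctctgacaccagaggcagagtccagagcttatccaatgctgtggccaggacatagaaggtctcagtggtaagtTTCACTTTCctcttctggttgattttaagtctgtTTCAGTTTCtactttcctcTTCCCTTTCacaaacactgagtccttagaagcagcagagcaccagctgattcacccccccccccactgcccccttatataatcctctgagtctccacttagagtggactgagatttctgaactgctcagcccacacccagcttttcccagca
The Ifit1 promoter lies at chr19:34618039-34618338 on the + strand, that of Ifit3 at chr19:34560679-34560978 (+), that of Isg15 at chr4:156285226-156285525 (−), that of Rsad2 at chr12:26506402-26506701 (−), that of Oas1a at chr5:121045539-121045838 (−) and that of Eif2ak2 at chr17:79189952-79190251 (−). Ifit1, Isg15 and Ifit3 each held 3 matches, Oas1a and Eif2ak2 2 and Rsad2 1. In Ifit1 the matches began 109, 103 and 84 bases upstream of the start, and in Isg15 they began 78, 72 and 66 bases upstream. The Eif2ak2 matches began 18 and 24 bases downstream of the start. Of these 6 sequences, a CLPP-KO peak overlapped those of Ifit1 and Eif2ak2, and a WT + 2HG peak that of Eif2ak2. At Isg15, Rsad2 and Oas1a the CLPP-KO peak began farther into the gene than the printed bases.

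Of the 10 gained genes, 6 were antiviral effectors, a role with 17 listed members of which 4, 3 and 10 were marked. Of all protein-coding genes 51.3%, 56.4% and 58.2% were marked, and 14.9% of those without a WT peak were gained in CLPP-KO. Ifit1, which binds foreign RNA ends, had no peak in WT or WT + 2HG and a pair of peaks in CLPP-KO, the stronger at chr19:34618301-34618923 and percentile 17.3. That peak began 30 bp into the gene, and its summit lay in intron 1. Both Ifit1 peaks also overlapped the window of the neighbouring gene Ifit1bl2. Rsad2 (viperin), an enzyme that makes a chain-terminating nucleotide, had a CLPP-KO peak of 455 bp at chr12:26505910-26506364, percentile 9.08, with its summit in coding exon 1. Mx2, a dynamin-like GTPase, had a CLPP-KO peak of 945 bp at chr16:97337418-97338362 and percentile 18.2. The Mx2 gain was lost when only transcripts annotated as protein-coding were used. All of these peaks sat low in the CLPP-KO list.

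The family of oligoadenylate synthetases and Oasl genes gave 3 further gained genes. The active synthetases of this family sense double-stranded RNA and activate RNase L. Oas1a had a CLPP-KO peak at chr5:121044905-121045528 and percentile 19.4, which it shared with the window of Oas1d. The peak of Oas2 at chr5:120887266-120887737 was at percentile 6.40, and that of Oasl2 at chr5:115035616-115036155 was at percentile 12.9. The remaining members of this family on the list, Oas3 and Oasl1, had no promoter peak in any list, although Oas3 starts 27.8 kb from Oas2 and Oasl1 starts 26.3 kb from Oasl2. At Oas1a, Oas2 and Oasl2 the summit lay in intron 1 of the canonical transcript. No WT or WT + 2HG promoter peak was present at any of the 5 genes.

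Isg15, a ubiquitin-like modifier, had a CLPP-KO peak of 1004 bp at chr4:156284080-156285083 and percentile 18.6. Its summit lay 990 bp from the start, in exon 2, and the nearest WT peak was 1427 bp away. With a window of 3000 bp that WT peak counted for Isg15, and the gene was no longer gained. Irf9, the DNA-binding partner of Stat2, had the weakest of the gained peaks, 407 bp at chr14:55842182-55842588 and percentile 2.45. For the 7 genes other than Isg15, Irf9 and Rsad2 the nearest WT peak was at least 33526 bp away. None of the 10 strongest peaks overlapped a WT peak, which follows largely from the definition of gained.

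Usp18 and Eif2ak2 were marked in both WT + 2HG and CLPP-KO. Usp18 removes Isg15 from proteins and dampens receptor signalling, and its strongest peak lay at percentile 23.5 with 2HG (chr6:121222523-121223118) and 19.2 in the knockout (chr6:121222260-121223180). Eif2ak2 (PKR) halts translation when it binds double-stranded RNA, and its peak lay at percentile 25.7 with 2HG (chr17:79189455-79190187) and 24.8 in the knockout (chr17:79189190-79190236). These peaks spanned the start site in both lists. Usp18 also had a second CLPP-KO peak, at percentile 11.0, which lay 1314 to 2277 bp downstream of the canonical start. The peaks of the other 8 gained genes lay wholly downstream of the canonical start.

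That position was counted for all genes. The strongest CLPP-KO promoter peak lay wholly downstream of the canonical start in 8 of the 10 gained listed genes, against 47.9% of the 1579 protein-coding genes gained in CLPP-KO. Among the 20 listed genes marked in every list it did so in 7 (35.0%), against 21.0% of protein-coding genes marked in every list. The median summit of the gained listed genes lay 392 bp downstream of the start, and that of all gained protein-coding genes 254 bp downstream. For 6 of the 10 gained genes the summit was in intron 1 of the canonical transcript, for 2 in a coding exon and for 2 upstream of the start. Of the 1579 protein-coding genes gained in CLPP-KO, the summit was in intron 1 for 22.5%, in a coding exon for 25.7%, upstream for 16.8% and in a UTR exon for 32.3%, where none of the 10 listed genes had it. Of the 21 listed genes marked in WT, the CLPP-KO summit was in an intron for 7, in a coding exon for 8, in a UTR exon for 4, upstream for 1 and downstream for 1, where the shares were 42.6%, 22.4%, 20.0%, 14.4% and 0.650% of the 11084 protein-coding genes marked in both lists.

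**Figure D2:**
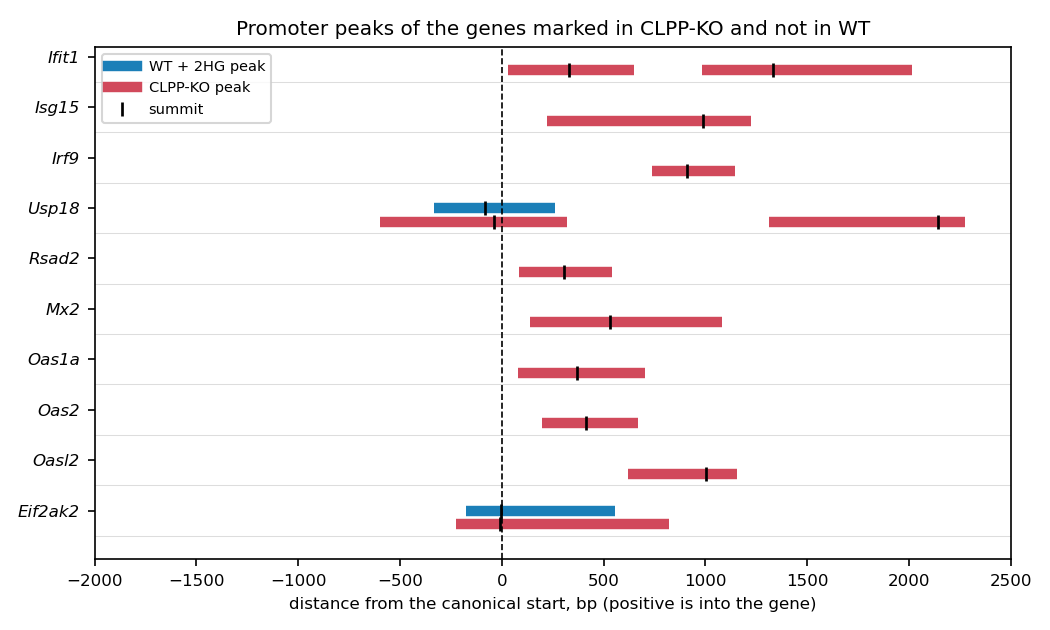
Promoter peaks of the 10 genes marked in CLPP-KO and not in WT, as distance in bp from the canonical start (x axis, positive into the gene), 1 row per gene. Bars are peaks in WT + 2HG (blue) and CLPP-KO (red) and black ticks are summits. The strongest peaks of Usp18 and Eif2ak2 span the start, and those of the other 8 genes begin 30 to 740 bp downstream of it. A second Usp18 peak in CLPP-KO lies 1314 to 2277 bp downstream of the start.

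Of the 8 sensors and adaptors, 5, 6 and 6 were marked, beside the same 51.3%, 56.4% and 58.2% of protein-coding genes. Cgas, the DNA sensor that makes cyclic GMP-AMP, had percentiles of 66.3, 73.9 and 61.6. Its promoter peak covered 1609, 1421 and 919 bp. Ifih1 (MDA5), a sensor of long double-stranded RNA, had percentiles of 63.7, 27.0 and 43.6. Ifih1 thus stood lower in both other lists than in WT, and it covered 954, 573 and 721 bp. Mavs, the mitochondrial adaptor of RNA sensors, had percentiles of 48.6, 45.3 and 51.7. Tbk1, the kinase downstream of both adaptors, was at 50.5, 56.3 and 56.4. These values for Mavs and Tbk1 lay within 10 percentile points of WT. Adar, which edits double-stranded RNA and is known to have constitutive and interferon-inducible promoters, was at 60.9, 69.1 and 69.5. In all 3 lists the Adar peak lay about 15 kb upstream of the canonical start, with summits 15373, 15432 and 15265 bp upstream of it, at other annotated starts. With the canonical transcript alone Adar counted as unmarked. Sting1, the adaptor of Cgas, and Zbp1, a sensor of left-handed nucleic acids, had no promoter peak in any list.

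The interferon receptor chains were marked in every list. Ifnar1 had percentiles of 44.3, 42.6 and 60.0, the last of them above the others. Ifnar2 was at 59.5, 68.2 and 63.3, while it covered 1259, 870 and 708 bp. Ifnar2 was thus narrower in both other lists. Stat2, which carries the receptor signal to the nucleus, had percentiles of 21.2, 47.9 and 43.3, lowest in WT. The Stat2 peak also fell in the window of the neighbouring gene Apof. Among the interferon regulatory factors, Irf1 was high in every list, at 86.0, 89.3 and 91.4. Irf3, activated by Tbk1, was at 37.1, 41 and 29.5 and shared its peak with Bcl2l12. Irf7, which amplifies interferon production, was weak in WT at percentile 7.05 and in CLPP-KO at 8.55, and was at 23.2 in WT + 2HG. It covered 306, 1134 and 855 bp. The CLPP-KO value of Irf7 also comes from a peak that overlapped no WT peak, 213 bp away, and the one that did was at percentile 2.54.

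Among the effectors marked in WT, Cmpk2 differed most in percentile between WT and CLPP-KO. Cmpk2, a mitochondrial nucleotide kinase whose start lies 12.8 kb from that of Rsad2, had percentiles of 56.4, 55.5 and 87.7. Its peak covered 973, 993 and 1338 bp, with the CLPP-KO peak at chr12:26518902-26520239. Bst2 (tetherin), which holds virus particles at the cell surface, was lower in both other lists, at 70.7, 54.8 and 58.3. Ifitm3, which blocks entry from endosomes, was weak in all, at 9.72, 12.6 and 16.2. The last value comes from a second CLPP-KO peak at chr7:140588656-140589482, with its summit past the end of the gene, which lay 87 bp from the nearest WT peak and overlapped none. The CLPP-KO peak of Ifitm3 that overlapped WT peaks was at percentile 10.4. With both peaks, Ifitm3 covered 1435 bp in CLPP-KO and 715 bp in WT. Xaf1, an interferon-inducible apoptosis factor, was at 17.8 in WT and 18.2 in CLPP-KO and had no peak in WT + 2HG. Ifit2, Ifit3, Mx1, Oas3, Oasl1, Ifi35 and Ifi44, the other 7 effectors, had no peak in any list.

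Of the 5 genes of the ubiquitin-like and ADP-ribosylation system, 3, 4 and 5 were marked, beside 51.3%, 56.4% and 58.2% of protein-coding genes. Of these 5, Isg15 and Usp18 are gained genes with weak peaks, neither of them gained with lists of equal size by summit p. Trim25, an E3 ligase for Rigi, had percentiles of 90.0, 79.5 and 87.4. Parp9 and Dtx3l, partners in ADP-ribosylation, have starts 681 bp apart and shared 1 peak, at 39.7, 39.8 and 54.4, so they count as 1 observation. Of the antigen presentation genes, Tap1, the peptide transporter, had percentiles of 70.0, 83.1 and 92.6, the last being the highest of the listed genes in CLPP-KO, and it shared its peak with Psmb9. Psmb8, an immunoproteasome subunit 10.3 kb from Tap1, was at 60.8, 42.4 and 63.2. B2m, the light chain of MHC class I, differed little, at 33.9, 31.0 and 31.3. The chemokine Cxcl10 had no peak in any list.

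**Figure D3:**
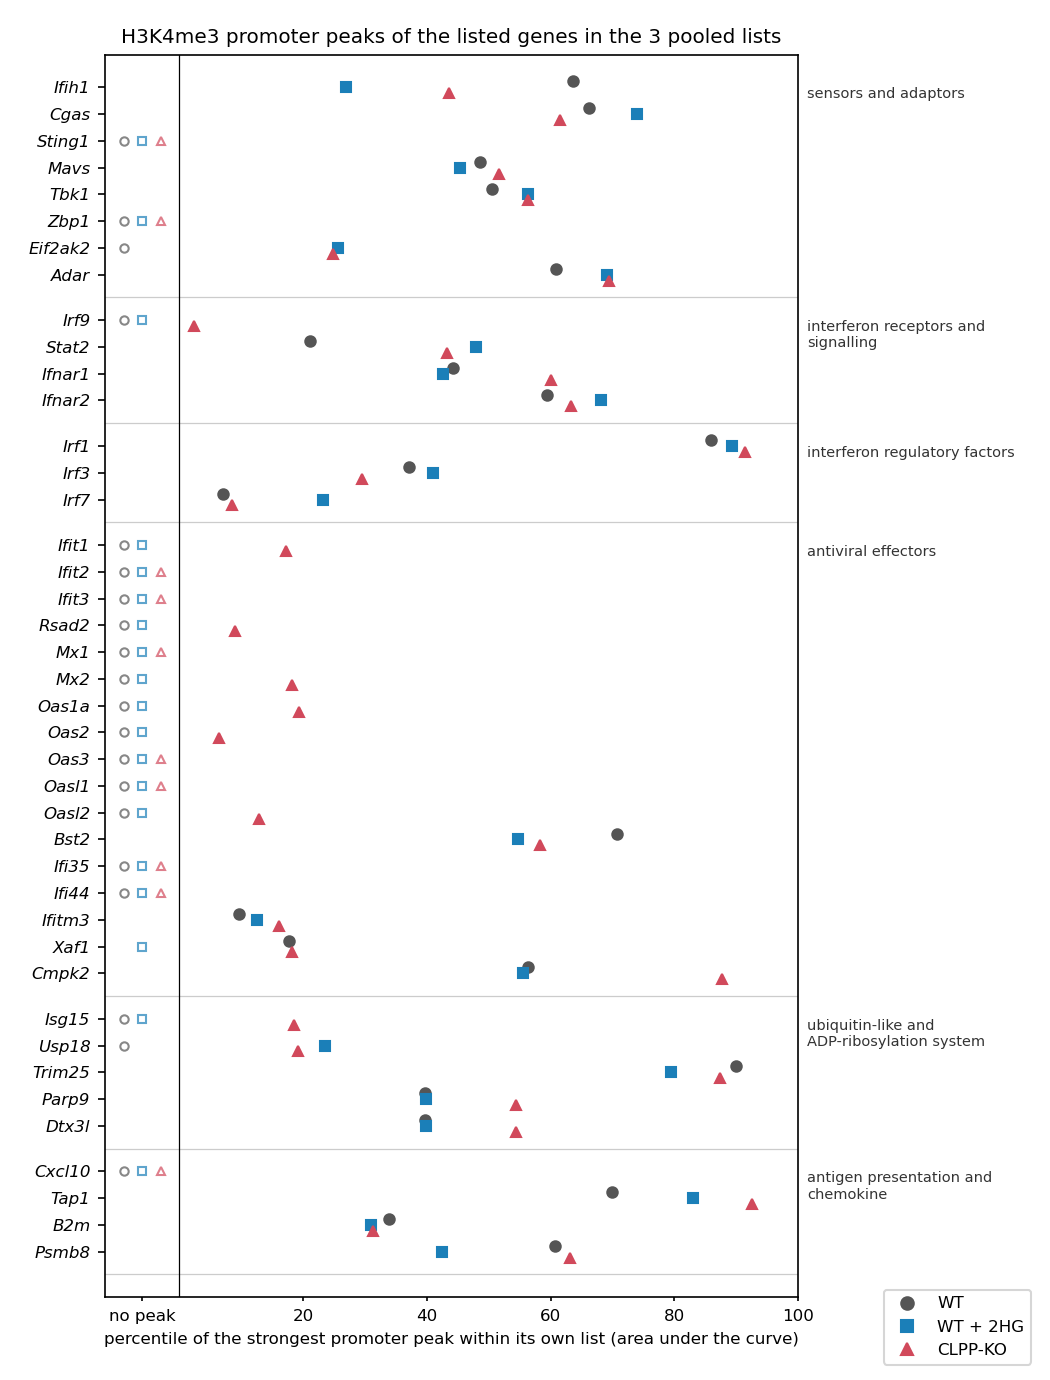
Percentile of the strongest promoter peak within its own list (x axis, 0 to 100) for each of the 41 genes (y axis, grouped by role) in WT (grey circles), WT + 2HG (blue squares) and CLPP-KO (red triangles). Open symbols at the left mark lists without a promoter peak. In CLPP-KO, the 10 gained genes lie at or below 24.8, whereas Cmpk2 and Tap1 reach 87.7 and 92.6.

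Over the genes marked in both lists of a comparison, shifts went both ways. A percentile at least 10 points above WT was found in CLPP-KO for 6 of 21 listed genes (28.6%), beside 36.1% of protein-coding genes. These were Stat2, Parp9, Dtx3l, Cmpk2, Ifnar1 and Tap1, of which Parp9 and Dtx3l share 1 peak, so that the 6 genes stand for 5 peaks. A percentile at least 10 points lower was found for Ifih1 and Bst2, 2 of 21 (9.52%), beside 6.56%. In WT + 2HG, 3 of 20 (15.0%) were higher, beside 32.0%, namely Irf7, Stat2 and Tap1. Ifih1, Bst2, Trim25 and Psmb8, 4 of 20 (20.0%), were lower in WT + 2HG, beside 9.70%. The peaks covered at least 25% more bases than in WT for 7 of 21 genes in CLPP-KO (33.3%, background 30.0%) and for 5 of 20 in WT + 2HG (25.0%, background 30.2%). They covered at least 20% fewer for 3 of 21 in CLPP-KO (14.3%, background 4.34%) and for 3 of 20 in WT + 2HG (15.0%, background 4.54%). The wider genes in CLPP-KO were Irf3, Irf7, Stat2, Ifitm3, Trim25, Cmpk2 and Psmb8, and in WT + 2HG Irf1, Irf3, Irf7, Stat2 and Tbk1. The 3 narrower genes were Ifih1, Cgas and Ifnar2 in CLPP-KO and Ifih1, Bst2 and Ifnar2 in WT + 2HG. The 21, 22 and 31 listed genes marked in each list had median percentiles of 50.5, 44.0 and 43.3, where all protein-coding genes marked in that list had 59.3, 60.6 and 62.0. For the 20 genes marked in every list, the median percentiles were 53.4, 46.6 and 57.4, where protein-coding genes marked in every list had medians of 59.8, 64.8 and 67.0.

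RefSeq promoter sequences were matched by symbol for 34 of the 41 genes. TTCNNTTTC on either strand was present in the promoters of 16 of the 34 (47.1%), and in 9.09% of the 15319 protein-coding genes with such a sequence and 8.56% of all promoters in the table. It was found in 5 of 7 gained genes with a sequence, 7 of 20 genes marked in WT and 4 of 7 genes in no list. Over all protein-coding genes of these classes the shares were 9.35%, 7.77% and 11.3%. Many listed genes were named as interferon-stimulated, so a high share of these letters is not independent of that choice. Without a WT peak, 5 of 9 listed genes with the letters and 2 of 5 without them were gained in CLPP-KO. The protein-coding shares were 15.0% and 17.6%. The core of the gamma-activated site (GAS), TTCNNNGAA, was present in 11 of 34 (32.4%), beside 8.67% of protein-coding genes and 8.30% of promoters. TATAAA was present in 14.7%, beside 12.8% of protein-coding genes and 13.6% of promoters, and the NF-κB letters GGGANTTTC in B2m alone (2.94%, beside 1.31% and 1.11%). TTCNNTTTC and the GAS core can overlap. These are letter matches only, and no binding was measured. Within 1000 bp of any start in the genome, TTCNNTTTC occurred for 37 of 41 listed genes and for 69.5% of protein-coding genes, so at that distance the letters separate little.

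The promoters also differed in CpG content. The ratio of observed to expected CpG, with the highest promoter of each gene, had a median of 0.291 for the 7 gained genes with a sequence, 0.697 for the 20 marked in WT and 0.393 for the 7 in no list. Over all protein-coding genes the medians were 0.654 for those gained in CLPP-KO, 0.818 for those marked in WT and 0.233 for those in no list. A ratio below 0.5 was found in 6 of the 7 gained genes (85.7%), beside 28.6% of all protein-coding genes gained in CLPP-KO. Eif2ak2, at 0.636, was the exception. Among genes with a ratio below 0.5 and no WT peak, 6 of 11 listed genes were marked in CLPP-KO and 0 of 11 in WT + 2HG, beside 6.84% and 5.02% of 4784 protein-coding genes. At a ratio of 0.5 or above, 1 of 3 listed genes was marked in CLPP-KO and 1 of 3 in WT + 2HG. The shares of 1821 protein-coding genes were then 44.9% and 36.6%. This split was chosen after the values had been seen, and the 6 peaks of the class below 0.5 were among the weak ones described above.

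**Figure D4:**
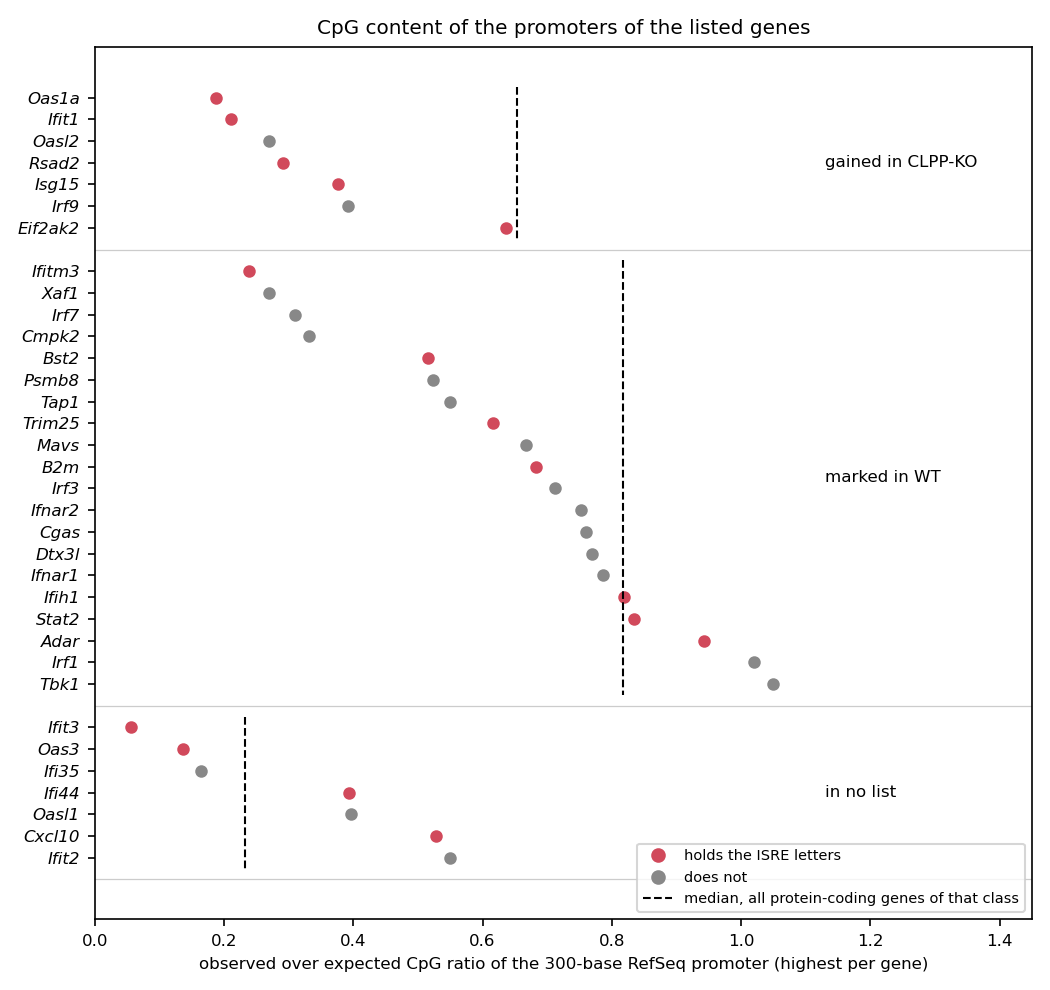
Ratio of observed to expected CpG in the 300-base RefSeq promoter (x axis) of 34 listed genes (y axis), grouped as gained in CLPP-KO, marked in WT or in no list. Red points hold the ISRE letters, and dashed lines give the median of all protein-coding genes of the class. The gained genes lie between 0.188 and 0.636, below the dashed line at 0.654.

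A further 113 interferon and sensing genes outside the list were taken as a second set, all of them found in the annotation. The CLPP-KO list marked 65 of them (57.5%), the WT + 2HG list 56 (49.6%) and the WT list 49 (43.4%), beside 58.2%, 56.4% and 51.3% of protein-coding genes in the same order. Of the 64 without a WT peak, 17 were marked in CLPP-KO (26.6%, 17.3 to 38.5) and 9 in WT + 2HG (14.1%, 7.58 to 24.6), beside the 14.9% and 11.6% given above. All 9 were also in the CLPP-KO list (14.1% of the 64, beside 9.74% of protein-coding genes without a WT peak). Of the 1227 protein-coding genes gained in WT + 2HG, 1033 were in the CLPP-KO list as well. The 9 were the RNA sensor Rigi, the ligase Herc6, Irf8, Ifitm2, Slfn8, Trim21, Trim34a, Igtp and Il15. The 8 in CLPP-KO alone were Oas1g, Uba7, Slfn9, Helz2, Lgals3bp, Lgals9, Cd274 and Ifi47. For comparison, 1579 protein-coding genes were gained in CLPP-KO, and 1033 of them were gained in both lists. Uba7, the activating enzyme for Isg15, stood at percentile 61.2, above all 10 gained genes of the list. Rigi was weak in both lists, at 5.51 with 2HG and 6.90 in the knockout. With lists of equal size, 4 of the 64 were gained in CLPP-KO (6.25%), by area and by summit p alike, beside 8.39% and 8.28% of protein-coding genes. These 4 were Irf8, Herc6, Uba7 and Ifi47 in both. In WT + 2HG, 5 of the 64 were then gained by area and 2 by summit p, beside 7.26% and 7.13%, so that by area WT + 2HG had more gained genes than CLPP-KO. With a summit p of at most 1e-05, 11 of 75 were gained in CLPP-KO and 5 with 2HG, beside 15.0% and 13.1%. With an area of at least 1000, the counts were 8 and 3 of 75, beside 16.9% and 13.5%. Of the 49 marked in WT, 2 were missing from WT + 2HG, Trim56 and Irgm1 (4.08%, background 0.914%). From CLPP-KO 1 was missing, Ube2l6 (2.04%, background 0.672%). The interferon gene Ifnb1 was marked in none of the lists.

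Cell type markers were read in the same way as a check of the label. Of 11 adipocyte markers, 3, 6 and 5 were marked. The lists marked 51.3%, 56.4% and 58.2% of all protein-coding genes, shares that also stand beside the other marker counts below. Pparg, the main adipogenic factor, had percentiles of 17, 70.4 and 37.3. Cebpa, another adipogenic factor, was high in every list at 94.9, 94.0 and 98.8, as was Prdm16, a regulator of brown fat identity, at 93.5, 99.7 and 96.1. Plin1 and Cidea, both lipid droplet proteins, were marked in WT + 2HG and CLPP-KO but not in WT, and the lipase gene Lipe in WT + 2HG alone. Adipoq, Fabp4, Cidec, Ppargc1a and the thermogenic gene Ucp1 had no promoter peak in any list, so the lists do not show these defining genes of mature brown adipocytes as marked. The paper reports strong upregulation of UCP1 in mBA cells of both genotypes, and higher Ppargc1a transcripts in CLPP-KO cells. A gene without a called peak, listed or not, is therefore not shown to be silent. Adipocyte markers thus also differed between lists, but in another order. They were marked most often in WT + 2HG, and the listed genes most often in CLPP-KO. Any part of these markers in the result was not tested. None of 10 immune cell markers was marked in WT or CLPP-KO, including Ptprc, Adgre1, Itgam and Spi1, and Cd14 was marked in WT + 2HG. Of 4 endothelial markers, Kdr was marked in every list and the other 3 in none. Of 4 fibroblast and preadipocyte markers, Pdgfra and Col1a1 were marked in every list, Thy1 in CLPP-KO at percentile 22.2 and Dcn in none.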

How the data were processed

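H3K4me3 ChIP–seq was analysed from 3 deposited peak lists, 1 per condition. Per the labels and methods, the authors trimmed reads (fastp 0.23.4), aligned them to mm39 (BWA 0.7.17) and called peaks with Genrich 0.6.1 on the 4 replicates of a condition together. The submitters' processing notes also name deepTools 3.5.4. The deposited lists hold peak positions, a coverage signal (area under the curve, not scaled between lists) and the summit's −log10 p. Column 9 is −1 throughout, so the summit p was read from column 8, which the plan had misnumbered. Depth per sample is unknown from these lists, so the precision of a peak could not be given. The stated Genrich settings exclude X and name a smaller minimum area, whereas the lists hold peaks on X and none with an area below 200.0.

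Peaks were overlapped with windows of 2000 bp around GENCODE M39 starts by scripts in Python 3.11.15 (NumPy 2.4.6, SciPy 1.17.1), tested on simulated peaks and checked against bedtools 2.31.1. Shares carry 95% Wilson intervals. Promoter letters came from RefSeq sequences (GRCm38.p6) placed in GRCm39 by exact match. Alternatives covered windows, transcripts, thresholds, list size and gene assignment, and 1 on CpG content was added after the data were seen. All 41 genes are named. The genes and lists were chosen with earlier results of these data known.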

Additional observations from a re-analysis of the deposited data

How the results depend on the processing

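The WT and WT + 2HG counts of marked genes stayed within 1.5 times of those given under all 10 alternatives for peaks and genes, whereas the CLPP-KO count did not with either limit on summit p. In brackets is the share of protein-coding genes under the same setting. With a summit p of at most 1e-05, 20 of 41 listed genes were marked in CLPP-KO (54.5%), 2 of 23 were gained in CLPP-KO (15.0%), 1 in both (11.1%), 0 were missing from WT + 2HG (0.325%) and 19 were in no list (44.2%). With an area of at least 1000, 5 of 24 were gained in CLPP-KO (16.9%), 4 in WT + 2HG (13.5%), 0 were missing from WT + 2HG (0.364%) and 18 of 41 were in no list (45.5%). With lists of equal size by area, 4 of 20 were gained in CLPP-KO (8.39%), 3 of 21 missing from it (3.35%) and 16 of 41 in no list (43.8%). With lists of equal size by summit p, 18 of 41 were marked in CLPP-KO (53.3%), 0 of 20 gained in it (8.28%), 0 gained in both (5.39%), 2 of 21 missing from WT + 2HG (2.57%), 3 missing from CLPP-KO (3.84%) and 18 of 41 in no list (43.9%). Fewer weak peaks enter these lists by construction. With 1 gene per peak, 2 of 20 were missing from WT + 2HG (3.34%) and 1 from CLPP-KO (2.78%). With promoters below the CpG limit only, added after the data were seen, 6 of 11 were gained in CLPP-KO (6.84%) and 0 in WT + 2HG (5.02%). Over the 10 gained genes and these 10 alternatives, 68 of 100 single checks kept the gain and 32 lost it. At 5 percentile points, 10 of 21 genes were higher (51.0%) and 3 lower (14.5%) in CLPP-KO, and 7 of 20 higher (45.8%) and 4 lower (18.7%) in WT + 2HG. At 20 points, 3 were higher (15.8%) and 1 lower (1.07%) in CLPP-KO, and 1 higher (12.8%) and 1 lower (1.75%) in WT + 2HG. At 1.5 times the covered bases, 2 genes had more (14.3%) and 2 fewer (1.47%) in CLPP-KO, and 2 more (13.9%) and 2 fewer (1.28%) in WT + 2HG. The letters TTCNNTTTC were found for 37 of 41 genes within 1000 bp of a start (69.5%). Under the 4 other rankings the median percentile ranged from 41.3 to 62.7 in WT, where 50.5 is given above. The range with 2HG was 31.9 to 49.1 (44.0 above), and that of the knockout list 27.4 to 54.9 (43.3 above). The median was lowest in all 3 lists with summed area among genes. No paired analysis was possible because peak calling pooled the 4 replicates of each condition, and for that reason no fit without 1 replicate could be made.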
